A study of Aspergillus nidulans with 12 samples.

Results

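The comparison described here concerns the change in Aspergillus nidulans transcripts from 17 h to 48 h, by which time glucose had run out. It asks whether that change differed between a strain labelled rimO overexpression (OE_rimO) and wild type (strain A1153). It uses 8 of the 12 libraries of the series. They are the 2 cultures of each strain at 17 h, which the labels assign to primary metabolism, and the 2 cultures of each strain at 48 h, assigned to secondary metabolism and harvested 8 h after glucose was gone. Culture age and the loss of glucose go together between the harvests, so their effects cannot be told apart. The measure is the interaction, defined for each gene as the log2 change from 17 h to 48 h in the overexpression-labelled strain minus that in wild type. A positive interaction therefore means a larger rise or a smaller fall in the overexpression-labelled strain, and it equals the strain difference at 48 h minus the strain difference at 17 h. All cultures grew at 37 °C in shaken minimal medium whose carbon and nitrogen sources were 50 mM glucose and 10 mM nitrate, and poly(A) RNA was sequenced from Nextera libraries. The promoter behind the overexpression label and the number of transformants are not given in the sources used here. The remaining 4 libraries, from the rimO deletion label (17 h and 54 h), entered the fit to estimate the spread, and their levels are set beside some genes.

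RimO is, by the title of the series, the homolog of Rim15p. In Saccharomyces cerevisiae, Rim15p is a protein kinase held inactive while glucose and nitrogen are plentiful. When nutrient signalling falls it promotes the transcription of stress and storage genes and the entry into quiescence. In A. nidulans, the end of glucose goes with a switch from growth to the use of other carbon sources, autophagy, spore formation and secondary metabolite synthesis.

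The libraries held 9269951 to 17891416 counts, with the lowest total in replicate 2 of the overexpression-labelled strain at 48 h, and replicates correlated across genes at r = 0.9921 to 0.9943. Levels are counts scaled to library size with TMM factors (CPM), printed for both cultures of a group or as mean ± SD (n = 2 cultures). Changes are edgeR log2 fold changes ± SE, and a call means a Benjamini-Hochberg adjusted p under 0.05 over all tested genes. The SE is the absolute change divided by the root of its F statistic, not an error edgeR reports, and understates the error at very low counts. In bulk RNA, fewer cells of a type and less RNA per cell cannot be told apart.

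The targeted gene itself had opposite courses in the strains. The tables name no gene rimO, and its identity with AN7572 rests on general knowledge. In wild type the 17 h cultures held 99.8 and 109 CPM of AN7572 and the 48 h cultures 447 and 437 CPM. In the overexpression-labelled strain the corresponding values were 588 and 504 CPM, then 322 and 357 CPM. Wild type rose and the overexpression-labelled strain fell, without overlap of the harvests in either strain, giving an interaction of -2.77 ± 0.13 (adjusted p = 6.63e-09). At 48 h AN7572 was lower in the overexpression-labelled strain than in wild type (log2 difference -0.38 ± 0.09, adjusted p = 0.0047), so the label matched the transcript at 17 h only. The libraries labelled deletion still held 63.9 ± 4.83 CPM at 17 h and 50 ± 2.27 CPM at 54 h, below wild type but not absent. The deletion label thus did not match a complete loss of AN7572 reads, and the reason was not tested.

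Across the transcriptome most changes had the same direction in both strains, and the strains differed mainly in size. The log2 changes of the 9670 tested genes correlated between strains at Pearson r = 0.91 and Spearman rho = 0.90. That correlation is across genes, which are not independent replicates, and the 2 changes share no library. Of 7168 genes called in both strains, 6934 moved in the same direction and 234 in opposite directions. A rise was called for 40.3% of tested genes in wild type and 38.2% in the overexpression-labelled strain, and a fall for 43% and 43.6%, so that 83.2% and 81.8% changed in all. Which direction was more frequent depended on the scaling: rises and falls numbered 3893 and 4155 in wild type and 3696 and 4216 in the overexpression-labelled strain. With RLE scaling they numbered 4159 and 3899 and then 4036 and 3861, and with upper-quartile scaling 4330 and 3732 and then 4207 and 3700. The SD of the changes over genes was 2.80 in wild type and 2.63 in the overexpression-labelled strain. The interaction itself was called for 2792 genes, 28.9% of those tested, with 1259 positive (13%) and 1533 negative (15.9%). Of these, 1188 (12.3% of tested genes) reached a 2-fold difference, 461 positive (4.77%) and 727 negative (7.52%). The median interaction over all tested genes was 0.009.

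**Figure D1:**
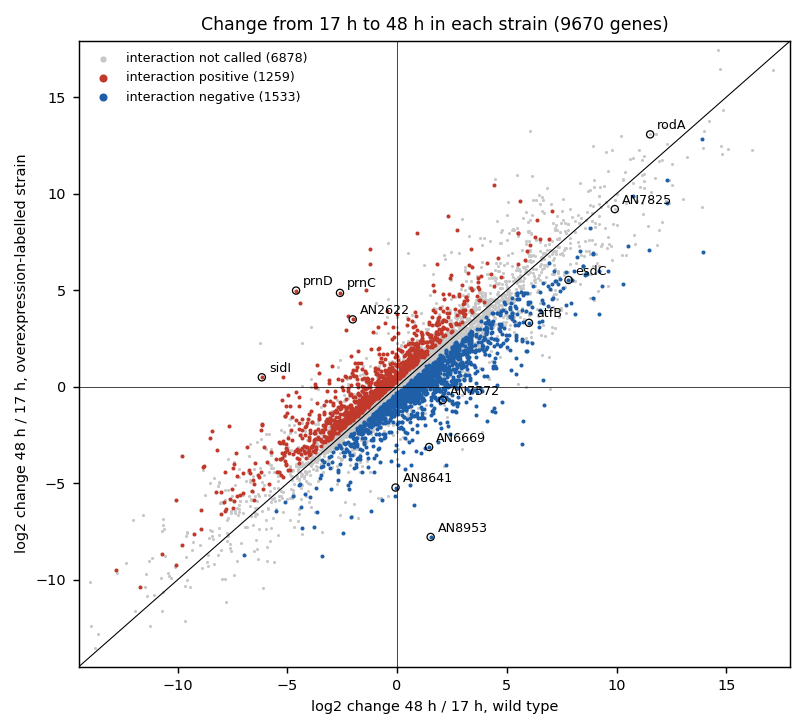
Log2 change from 17 h to 48 h in wild type (x axis) and in the overexpression-labelled strain (y axis), with 1 point for each of 9670 genes. Red and blue points have a called positive (1259) or negative (1533) interaction, grey points none, the diagonal marks equal changes, and circled genes are named. Most points follow the diagonal, while prnD, prnC, AN8953 and AN7572 lie far from it in the quadrants of opposite directions.

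The called interactions fell into classes by the calls of both changes. A change in the same direction but smaller in the overexpression-labelled strain was the most frequent class, with 1230 genes (44.1% of those called), of which 619 rose and 611 fell in wild type. A larger change in the same direction accounted for 606 genes (21.7%). Changes called in wild type alone made up 412 genes (14.8%) and changes called in the overexpression-labelled strain alone 308 (11%). Opposite directions made up 234 (8.38%), of which 154 rose and 80 fell in wild type. Neither change was called for 2 genes. By harvest, the strains differed at 48 h alone for 1235 genes, at 17 h alone for 728, at both with opposite signs for 457, at both with the same sign for 266, and at neither for 106. Over all tested genes the strains differed for 29.5% at 17 h (15.1% higher and 14.5% lower in the overexpression-labelled strain) and for 41.1% at 48 h (23% higher and 18.1% lower). At 17 h the order of higher and lower calls also turned with the scaling or tool, from 1456 and 1398 to 1250 and 1580 with RLE scaling and 1063 and 1438 with DESeq2. The strain difference was larger at 48 h for 1637 called genes and larger at 17 h for 1155.

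**Figure D2:**
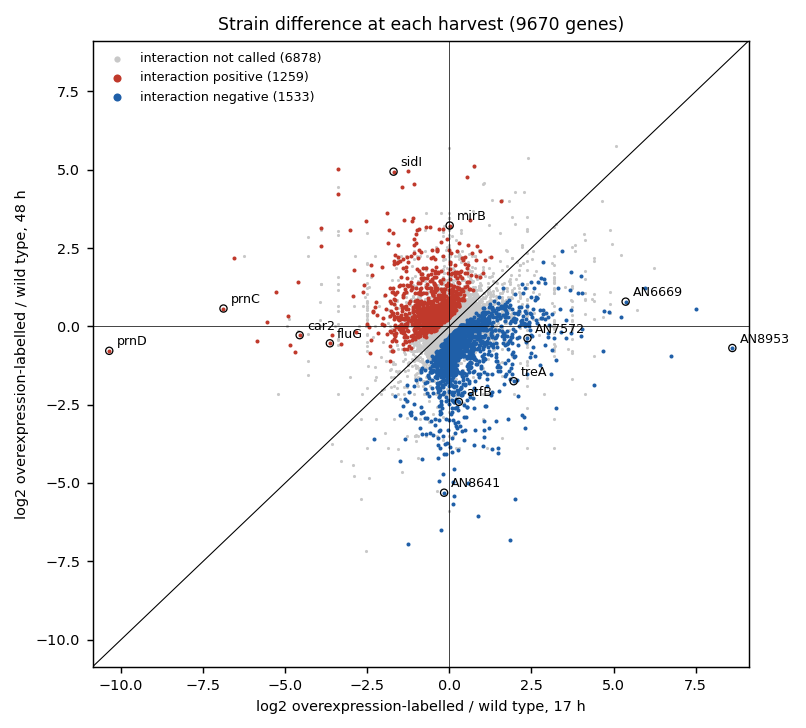
Log2 difference between the overexpression-labelled strain and wild type at 17 h (x axis) and at 48 h (y axis) for the same 9670 genes and colours. Columns of grey points come from genes with no or few reads in a group. The proline genes prnD and prnC and AN8953 differ mainly along the 17 h axis, AN8641 and atfB along the 48 h axis, and sidI along both with opposite signs.

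Among called genes of at least 10 CPM, prnD and prnC, genes of proline breakdown, had the largest positive interactions, and the strains differed more at 17 h than at 48 h. In A. nidulans the prn genes lie side by side and encode the proline permease PrnB, the proline oxidase PrnD and the next enzyme, PrnC, which together turn external proline into glutamate. In wild type prnD (AN1731) went from 1070 and 1010 CPM at 17 h to 45.2 and 40.6 CPM at 48 h. In the overexpression-labelled strain it went from 0.793 and 0.77 CPM (23 reads over both libraries) to 30.3 and 18.7 CPM. It thus fell in wild type and rose in the overexpression-labelled strain, with an interaction of 9.58 ± 0.30 (adjusted p = 7.54e-11), and the strain difference went from -10.36 ± 0.25 at 17 h to -0.78 ± 0.16 at 48 h.

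The enzyme gene prnC (AN1733) had the same course. It went from 733 and 700 to 115 and 122 CPM in wild type and from 7.07 and 5.04 to 187 and 165 CPM in the overexpression-labelled strain, and its interaction was 7.45 ± 0.17 (adjusted p = 4.01e-12). The permease gene prnB (AN1732) fell in both strains, from 282 and 259 to 4.64 and 3.02 CPM in wild type and from 9.98 and 8.89 to 3.01 and 1.62 CPM in the overexpression-labelled strain, with an interaction of 4.23 ± 0.31 (adjusted p = 2.55e-07). The neighbours AN1734 and AN1730, to which the reference gives no symbol, had positive interactions of 5.24 ± 0.30 and 1.80 ± 0.14 (adjusted p = 3.08e-08 and 3.63e-07). The 5 neighbouring genes AN1730 to AN1734 on chromosome VII had a median interaction of 5.24. The deletion-labelled strain at 17 h held 886 ± 20.5 CPM of prnD and 642 ± 40 CPM of prnC. The low 17 h level was therefore found in the overexpression-labelled libraries and in neither other strain.

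Of the purine genes listed with them, the purine transporter azgA had a small negative interaction (-0.50 ± 0.16, adjusted p = 0.0263), which was not called in a fit of the 8 libraries alone, nor without either replicate of wild type at 17 h, replicate 1 of wild type at 48 h, or replicate 2 of the overexpression-labelled strain at 17 h or at 48 h. The genes hxA (0.28 ± 0.17) and hxB (-0.03 ± 0.15) were not called. Of the 6 genes in this list of proline and purine use, 3 were thus positive and 1 negative (66.7% called, beside 28.9% of all tested genes), with a median interaction of 2.25.

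**Figure D3:**
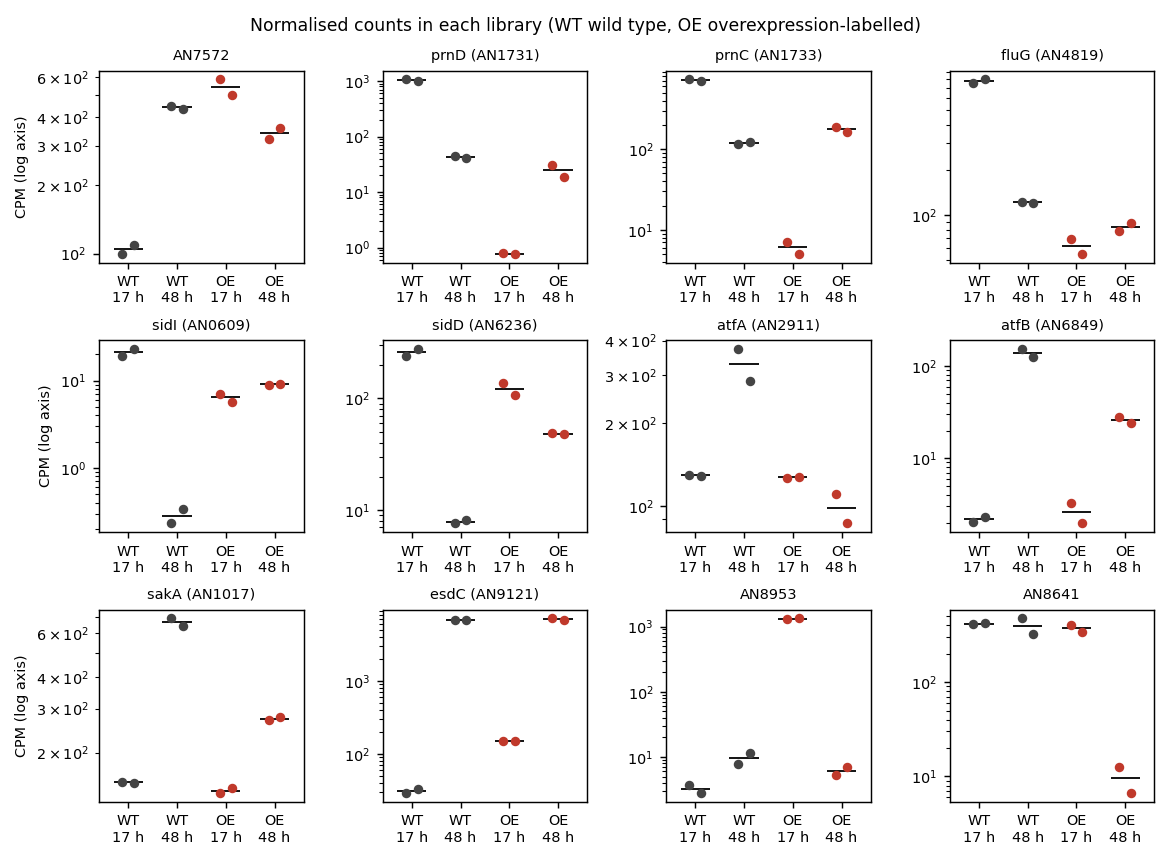
CPM (log axis) in each of the 8 libraries for 12 genes, with points for cultures and lines for group means, in wild type (WT, grey) and the overexpression-labelled strain (OE, red) at 17 h and 48 h. The prn genes and fluG are low in the overexpression-labelled strain at 17 h, atfA, atfB and sakA are lower in it at 48 h, and AN8953 is high in it at 17 h alone.

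A few abundant genes elsewhere in the genome shared this early deficit. AN2901, without a reference symbol, went from 1790 and 1730 to 43.3 and 53.8 CPM in wild type and from 37.5 and 37.1 to 56 and 51.4 CPM in the overexpression-labelled strain (interaction 5.71 ± 0.16, adjusted p = 3.43e-11). The gene car2 (AN1810), whose namesake in S. cerevisiae encodes ornithine aminotransferase, went from 1140 and 1120 to 98 and 92.5 CPM in wild type. In the overexpression-labelled strain car2 went from 47.8 and 47.9 to 79.5 and 77.1 CPM (interaction 4.28 ± 0.13, adjusted p = 3.58e-11). The developmental gene fluG (AN4819), needed for an early signal of conidiation, went from 751 and 799 to 122 and 121 CPM in wild type and from 69 and 55.2 to 78.6 and 88.6 CPM in the overexpression-labelled strain. Its interaction was 3.10 ± 0.16 (adjusted p = 1.05e-08). For these 3 genes the strains lay far apart at 17 h and close together at 48 h. The deletion-labelled strain held 1830 ± 67.7 CPM of AN2901, 1260 ± 40.5 CPM of car2 and 654 ± 79.7 CPM of fluG at 17 h.

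Siderophore and iron genes had the highest called share of the 31 gene lists compared. Siderophores are small iron chelators that Aspergillus secretes and takes up again, made on the peptide synthetases SidC and SidD and controlled by the iron regulators HapX and SreA. Of 12 listed genes, 11 had a called positive interaction and 0 a negative one, and the one not called was sreA (0.03 ± 0.11, adjusted p = 0.877). The list's median interaction was 2.45, beside 0.009 over all tested genes, and its called share of 91.7% stands beside the 28.9% background. In wild type 9 of the 12 fell and 2 rose (median change -3.40), while in the overexpression-labelled strain 6 fell and 6 rose (median -0.31). At 17 h 7 were lower than wild type and 0 higher, and at 48 h 11 were higher and 0 lower. The count of 11 positive and 0 negative was the same under all 17 alternatives, with medians of 2.35 to 2.57.

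Among the synthesis genes, sidI (AN0609), which in Aspergillus fumigatus encodes an acyl-CoA ligase of siderophore synthesis, had the largest value. It went from 19.1 and 23 to 0.232 and 0.336 CPM in wild type and from 7.07 and 5.74 to 9 and 9.02 CPM in the overexpression-labelled strain. It fell in the first and rose in the second, with an interaction of 6.64 ± 0.35 (adjusted p = 1.19e-08), though its wild type level at 48 h rests on 10 reads. The synthetase gene sidD (AN6236) went from 240 and 278 to 7.6 and 8.18 CPM in wild type and from 138 and 107 to 49 and 47.7 CPM in the overexpression-labelled strain, a fall in both (interaction 3.69 ± 0.24, adjusted p = 1.05e-07). Its neighbour sidH (AN6235), a hydratase gene of the same route in A. fumigatus, had an interaction of 4.07 ± 0.24. The other synthetase gene sidC (AN0607), for the intracellular siderophore, fell in wild type from 30 and 35.2 to 18.6 and 16.5 CPM. In the overexpression-labelled strain it rose from 20 and 12.4 to 63 and 61.9 CPM (interaction 2.83 ± 0.29, adjusted p = 5.53e-06).

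The siderophore transporter genes followed. The transporter gene mirB (AN8540) had no called strain difference at 17 h, with 154 and 158 against 166 and 149 CPM (log2 difference 0.01 ± 0.20). At 48 h it stood at 3.83 and 7.51 CPM in wild type and at 63.1 and 41.8 CPM in the overexpression-labelled strain (interaction 3.20 ± 0.33, adjusted p = 5.43e-06). For sit1, mirD, sit2 and mirC the interactions were 2.51, 2.13, 1.46 and 0.67, and for the esterase gene sidJ, which in A. fumigatus releases iron from a siderophore, 2.39. The regulator gene hapX (AN8251) stood at 15.4 ± 0.542 CPM at 48 h in wild type and at 23.4 ± 0.128 CPM in the overexpression-labelled strain (interaction 0.68 ± 0.15, adjusted p = 0.00276). The 6 neighbouring genes AN6239 to AN6234 on chromosome I, which hold sidJ, mirD, sidD and sidH, were all called as positive and at least 2-fold, with a median interaction of 3.13. In the late deletion-labelled libraries, harvested at 54 h, sidI stood at 440 and 359 CPM and mirB at 1380 and 1150 CPM, above the levels of both strains compared here.

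**Figure D4:**
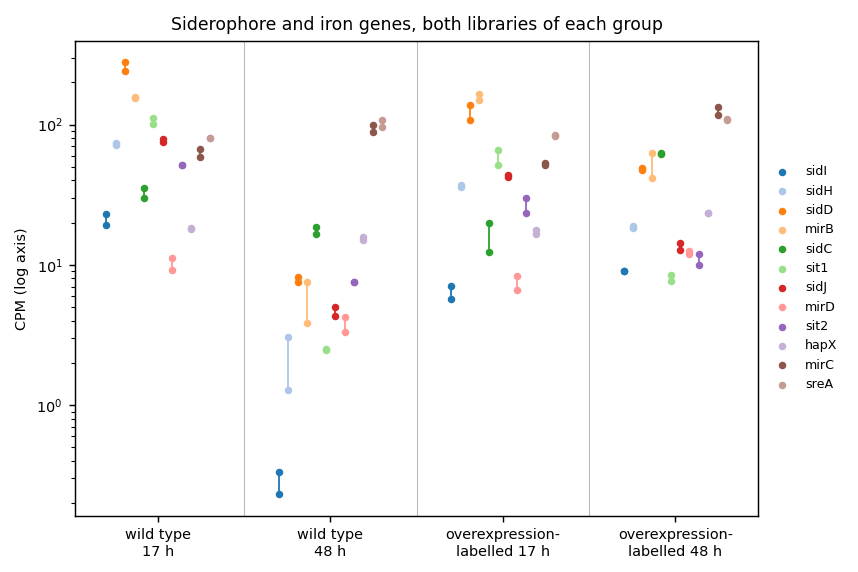
CPM (log axis) of the 12 siderophore and iron genes in both libraries of the 4 groups, each gene in 1 colour with its 2 cultures joined, ordered by interaction from sidI to sreA. From 17 h to 48 h most genes drop steeply in wild type and less, or not, in the overexpression-labelled strain.

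Of 10 listed stress regulators 3 had a positive and 3 a negative interaction (median -0.03), 60% called beside the 28.9% background, and without replicate 1 of wild type at 17 h 1 was positive and 3 were negative. The stress factor gene atfA (AN2911) rose from 130 and 129 CPM to 373 and 284 CPM in wild type. In the overexpression-labelled strain it fell from 127 and 128 to 111 and 86.6 CPM, and the strains did not overlap at 48 h (interaction -1.71 ± 0.18, adjusted p = 6.97e-06). The related gene atfB (AN6849) rose in both, from 2.03 and 2.33 to 154 and 125 CPM in wild type and from 3.3 and 1.96 to 28.2 and 24 CPM in the overexpression-labelled strain (interaction -2.70 ± 0.32, adjusted p = 2.45e-05).

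The MAP kinase gene sakA (AN1017), which in A. nidulans acts with AtfA in stress and in spores, rose from 153 and 151 to 689 and 640 CPM in wild type. In the overexpression-labelled strain it rose from 138 and 144 to 271 and 277 CPM (interaction -1.17 ± 0.11, adjusted p = 2.46e-06). The kinase above it, pbs2, was also negative (-0.51 ± 0.12, adjusted p = 0.00514). The response regulator gene sskA (AN7697) was positive: it fell in wild type from 146 ± 8.72 to 72.4 ± 1.68 CPM, while the overexpression-labelled strain stood at 80.2 ± 12 and 89.6 ± 6.42 CPM (interaction 1.17 ± 0.15, adjusted p = 3.36e-05). The second kinase of this type, mpkC, was positive at 0.59 ± 0.14 (adjusted p = 0.00548). Amino acid starvation regulator cpcA was negative (-0.59 ± 0.11, adjusted p = 0.00101) and the unfolded protein regulator hacA positive (0.42 ± 0.11, adjusted p = 0.0108, and 0.052 without replicate 1 of wild type at 17 h). Of 12 nutrient-signalling kinases in all, 2 were positive and 3 negative (41.7% called, beside 28.9% of all tested genes). These include mpkB, positive at 0.53 ± 0.11 (adjusted p = 0.00278), and schA, negative at -0.57 ± 0.16 (adjusted p = 0.0168). In the overexpression-labelled strain schA was lower than in wild type at 17 h and 48 h (log2 differences -0.42 and -0.99). The interaction call of schA was lost without replicate 1 of wild type at 17 h or replicate 2 of either strain at 48 h. The genes pkaC (-0.26, adjusted p = 0.154) and tor (0.10) were not called.

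Of 8 oxidative defence genes 2 were negative and 2 positive, 50% called beside 28.9% of all tested genes, with a median interaction of -0.14. The spore catalase gene catA (AN8637) rose from 1.42 and 1.68 to 17.2 and 15.6 CPM in wild type and stood at 3.83 and 2.8 CPM and then 2.78 and 2.8 CPM in the overexpression-labelled strain. Its interaction was -3.66 ± 0.34 (adjusted p = 2.29e-06), from 39 to 575 reads a group. The second negative one was glr1 (-0.35), not called without either replicate of wild type at 17 h or replicate 1 at 48 h (adjusted p = 0.0642 to 0.126), and the positive ones were the catalase gene fgaCat (0.93 ± 0.12, adjusted p = 4.33e-05) and sod4 (0.53). The acid trehalase gene treA (AN9340), singled out after its values were seen, rose from 44.7 and 46.4 to 352 and 243 CPM in wild type and fell from 179 and 175 to 90.4 and 86.1 CPM in the overexpression-labelled strain (interaction -3.71 ± 0.19, adjusted p = 1.02e-08). The gene erdS (AN0314), which in A. fumigatus encodes a sterol-modifying enzyme and was singled out in the same way, rose from 93.9 and 91.9 to 735 and 534 CPM in wild type and fell from 94.1 and 82.1 to 47.3 and 49.7 CPM (interaction -3.64 ± 0.23, adjusted p = 8.99e-08). Of 10 chaperones, 9 were lower at 17 h in the overexpression-labelled strain, as were 14.5% of all tested genes. In the interaction 2 were positive and 0 negative, 20% called, with hsp78, a mitochondrial chaperone gene in S. cerevisiae, at 1.30 ± 0.22. The count was 1 positive and 0 negative without replicate 1 of wild type at 17 h, 2 and 1 without replicate 2 of wild type at 48 h, and 1 and 1 without replicate 2 of the overexpression-labelled strain at 17 h or at 48 h.

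Of 11 sexual development genes 3 were higher and 0 lower in the overexpression-labelled strain at 17 h, where 29.5% of all tested genes differed. At 48 h 4 were higher and 2 lower, where 41.1% of all tested genes differed. The early sexual gene esdC (AN9121) rose from 29 and 32.7 to 6940 and 6830 CPM in wild type and from 152 and 150 to 7210 and 6770 CPM in the overexpression-labelled strain. The strains differed at 17 h (log2 difference 2.30 ± 0.10) and overlapped at 48 h, so the interaction was -2.28 ± 0.14 (adjusted p = 6.43e-08). In the interaction 2 of the 11 were positive and 3 negative (45.5% called, beside 28.9% of all tested genes). The positive count was 0 or 1 without any 1 of the 8 libraries other than replicate 2 of the overexpression-labelled strain at 48 h, and the calls were 3 in all without replicate 1 of wild type at 17 h, without replicate 1 of the overexpression-labelled strain at 17 h or without its replicate 1 at 48 h. The transcription factor gene steA was negative (-0.49 ± 0.11, adjusted p = 0.00384).

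Of 11 conidiation genes 4 had a positive interaction, fluG, abaA and wetA among them, and 1 a negative one, 45.5% called beside 28.9% of all tested genes. A positive interaction was not always a higher late level. At 48 h fluG was lower in the overexpression-labelled strain (log2 difference -0.54 ± 0.11, adjusted p = 0.00144), and at 17 h it was lower still (-3.64 ± 0.12). BrlA starts the asexual spore programme, and AbaA and WetA act after it. For brlA (AN0973) the means were 1.23 ± 0.109 and 171 ± 27.4 CPM in wild type and 1.91 ± 0.173 and 248 ± 7.89 CPM in the overexpression-labelled strain (interaction -0.11 ± 0.36, adjusted p = 0.866). The interaction of brlA was thus not called, while its level at 48 h was higher in the overexpression-labelled strain (log2 difference 0.53 ± 0.11, adjusted p = 0.00148). The gene abaA (AN0422) reached 5.17 ± 0.652 CPM at 48 h in wild type and 16.8 ± 2.64 CPM in the overexpression-labelled strain (interaction 1.15 ± 0.32, adjusted p = 0.016), and its call was lost without replicate 1 of wild type at 17 h (adjusted p = 0.184) or replicate 2 of the overexpression-labelled strain at 17 h (adjusted p = 0.0589). The upstream activator flbC (AN2421) was negative, with 489 and 458 CPM at 48 h in wild type against 368 and 245 CPM in the overexpression-labelled strain (interaction -1.36 ± 0.19, adjusted p = 0.000108). The call of wetA (1.29 ± 0.37) was lost without replicate 1 of wild type at either harvest or of the overexpression-labelled strain at 17 h (adjusted p = 0.0531 to 0.131). Without replicate 1 of wild type at 17 h the count was 1 positive and 1 negative, and it also fell by more than 1.5 times without replicate 1 of wild type at 48 h or replicate 2 of the overexpression-labelled strain at 17 h.

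Of 8 spore wall and pigment genes 2 were positive and 0 negative, 25% called, near the 28.9% of all tested genes. The count was 1 without replicate 1 of wild type at 17 h and 4 without replicate 2 of wild type at 48 h. The conidiophore pigment gene ivoA (AN10576) reached 37.1 and 56.4 CPM at 48 h in wild type and 218 and 231 CPM in the overexpression-labelled strain, from at most 1.15 CPM at 17 h (interaction 2.46 ± 0.53, adjusted p = 0.00304). Without replicate 1 of wild type at 17 h the interaction of ivoA was 2.18 and not called (adjusted p = 0.0686). The spore laccase gene yA (AN6635) reached 15.5 and 18 against 33.5 and 40 CPM (interaction 1.59 ± 0.19, adjusted p = 2.67e-05). For the hydrophobin gene rodA (AN8803) the 48 h levels were 809 and 1330 CPM in wild type and 3600 and 3580 CPM in the overexpression-labelled strain (log2 difference 1.75 ± 0.18, adjusted p = 2.56e-06). Its interaction of 1.55 ± 0.90 was not called (adjusted p = 0.223), with under 1 CPM in every 17 h library.

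Of 6 regulators of secondary metabolism 1 was positive and 1 negative, 33.3% called beside the 28.9% background. The global regulator gene laeA (AN0807) rose from 23.9 and 23 to 50.2 and 51.3 CPM in wild type and from 32.6 and 33 to 130 and 114 CPM in the overexpression-labelled strain (interaction 0.78 ± 0.13, adjusted p = 0.000377). Its velvet partner veA (AN1052) was higher in the overexpression-labelled strain at both harvests, by 0.52 and 0.57 on the log2 scale, with an interaction of 0.05 ± 0.11 (adjusted p = 0.796). The velvet gene velB (AN0363) was negative (-0.59 ± 0.13, adjusted p = 0.00256). Of genes listed by identifier, AN7825 reached 4000 and 2750 CPM at 48 h in wild type and 1780 and 2060 CPM in the overexpression-labelled strain, a difference of -0.82 ± 0.17 (adjusted p = 0.00154). Its interaction of -0.73 ± 0.36 was not called (adjusted p = 0.151) and was called without replicate 2 of wild type at 48 h (adjusted p = 0.0346). AN2622 fell in wild type from 24.7 and 25.6 to 6.15 and 6.22 CPM and rose in the overexpression-labelled strain from 7.86 and 5.67 to 75 and 77.7 CPM (interaction 5.51 ± 0.22, adjusted p = 1.30e-09). Also listed by identifier, AN7820 (-1.62 ± 0.84), AN7909 (-2.67 ± 1.21) and AN0150 (-0.56 ± 0.35) had no called interaction (adjusted p = 0.174, 0.116 and 0.26). AN7820 and AN7909 had 2 reads each in wild type at 17 h, and AN7909 was called under 1 of the 17 alternatives.

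The 3 glycolytic genes fell in both strains, and 0 had a called interaction, although 1 had an unadjusted p under 0.05 and was called by DESeq2: aspf22, an enolase gene in A. fumigatus (0.27, adjusted p = 0.113 by edgeR and 0.034 by DESeq2). Of 7 genes of the glyoxylate cycle, gluconeogenesis and acetate use, 3 were negative and 0 positive (42.9% called, beside the 28.9% background). The gluconeogenic gene acuF (AN1918) rose from 139 and 157 to 427 and 487 CPM in wild type and from 187 and 204 to 296 and 204 CPM in the overexpression-labelled strain (interaction -1.27 ± 0.20, adjusted p = 0.000225). The fatty acid use regulator farB1 (-0.93) and the acetate regulator facB (-0.57) were higher than wild type at 17 h, and facB lost its interaction call without replicate 1 of wild type at either harvest or replicate 2 of the overexpression-labelled strain at 48 h (adjusted p = 0.0669 to 0.0804). Of 10 nitrogen assimilation genes 1 was positive and 2 negative (30% called), or 1 and 1 without replicate 2 of wild type at 17 h, replicate 1 of wild type at 48 h or replicate 2 of the overexpression-labelled strain at 17 h. The nitrate and nitrite reductase genes niaD (0.26 ± 0.38) and niiA (-0.05 ± 0.14) fell in both strains without a called difference. Glutamine synthetase glnA (AN4159) ended at 3220 and 3010 CPM in wild type and at 1770 and 966 CPM in the overexpression-labelled strain (interaction -1.30 ± 0.27, adjusted p = 0.00196).

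Of 20 amino acid synthesis genes, 11 were positive, 1 was negative and 8 were not called, with a median interaction of 0.38, and 18 fell in each strain. The called share was 60%, beside the 28.9% background, and without either replicate of wild type at 17 h 7 were positive and 1 negative. The branched-chain gene ilv3 (AN6346) ended at 27.6 ± 1.13 CPM in wild type and 37.2 ± 2.94 CPM in the overexpression-labelled strain (interaction 0.75 ± 0.13, adjusted p = 0.000499). The exception was cpa1 (AN2243), which in S. cerevisiae encodes a carbamoyl phosphate synthetase subunit for arginine. It went from 335 and 304 to 278 and 226 CPM in wild type and from 513 and 507 to 113 and 89.6 CPM in the overexpression-labelled strain (interaction -1.98 ± 0.16, adjusted p = 6.07e-07). Ribosome assembly genes all fell in both strains, and 7 of 26 were positive and 1 negative (30.8% called, median 0.27), a count that ranged from 3 in all without replicate 1 of the overexpression-labelled strain at 48 h to 13 without its replicate 2, and that also moved by more than 1.5 times without replicate 2 of wild type or replicate 1 of the overexpression-labelled strain at 17 h. The 16 proteasome genes also fell in both, with 0 positive and 4 negative (25% called, median -0.21), a count that ranged from 0 under RLE scaling to 4 over the alternatives and fell by more than 1.5 times without any 1 of the 8 libraries.

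**Figure D5:**
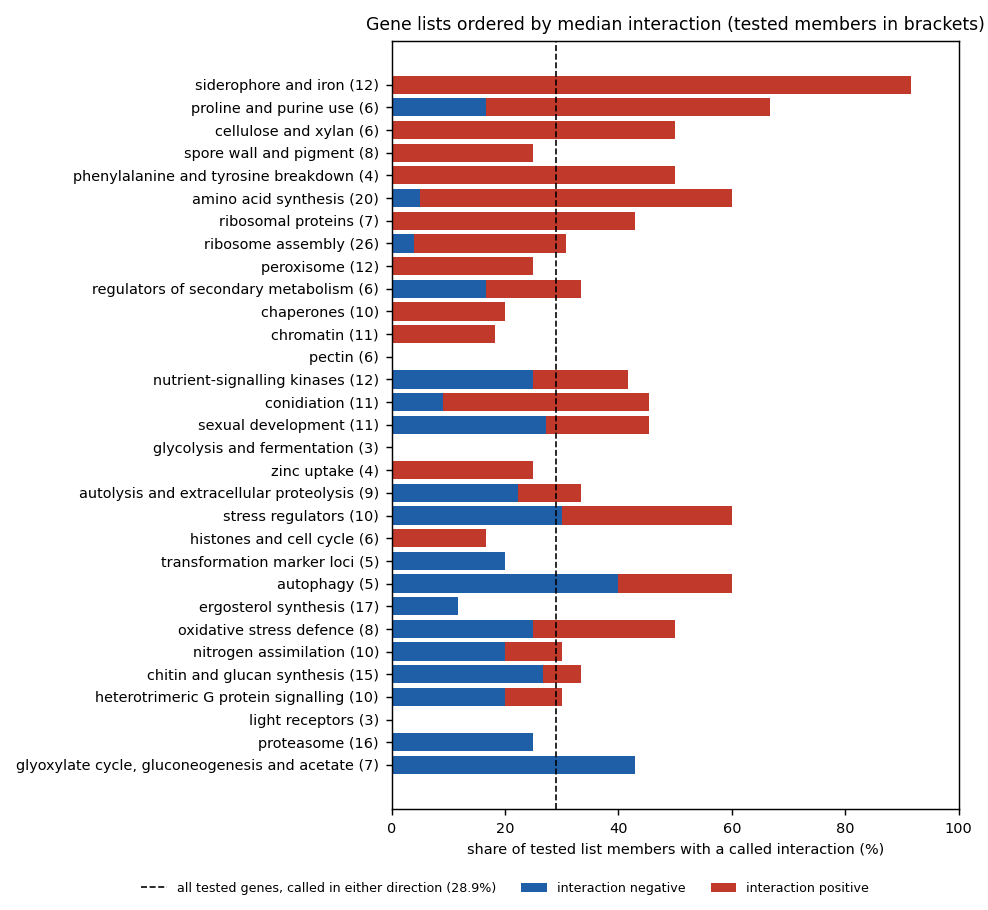
Share of the tested members of each of 31 gene lists with a called negative (blue) or positive (red) interaction, in percent, ordered by the list's median interaction with the number of tested members in brackets. The dashed line marks the 28.9% of all tested genes called in either direction, and the siderophore list lies at 91.7%.

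Of 5 autophagy genes, all of which rose in both strains, the kinase gene atg1 was positive (0.68 ± 0.16) and atg26 (-1.11 ± 0.13) and atg15 (-0.45) negative. That is 60% called, beside 28.9% of all tested genes. The call of atg15 was lost without replicate 1 of any of the 4 groups or replicate 2 of wild type at 48 h (adjusted p = 0.0569 to 0.0883). Of 4 genes of phenylalanine and tyrosine breakdown 2 were positive and 0 negative (50% called). The count was lower without replicate 1 of wild type at 17 h or replicate 2 of the overexpression-labelled strain at 17 h. The homogentisate dioxygenase gene hmgA (AN1897) led them. It went from 4.68 ± 0.383 to 59.3 ± 0.0159 CPM in wild type. In the overexpression-labelled strain it went from 1.6 ± 0.305 to 68.4 ± 7.21 CPM (interaction 1.73 ± 0.24, adjusted p = 0.000105). Of 10 genes of heterotrimeric G protein signalling 1 was positive and 2 negative (30% called): the receptor gene gprD (2.29 ± 0.35), the G protein gene gpaB (-0.72 ± 0.10) and the receptor gene gprC (-0.39). The call of gprC was lost under RLE scaling, in DESeq2, with the replicate block, in the fit of 8 libraries, and without replicate 2 of wild type at either harvest or any 1 library of the overexpression-labelled strain (adjusted p = 0.0562 to 0.311 without 1 library). Of 6 tested genes of cellulose and xylan breakdown 3 were positive and 0 negative (50% called): aguA (1.43 ± 0.22), xlnD (1.00 ± 0.36) and cbhB (0.86 ± 0.19). The call of xlnD was lost with limma-voom, with no filter, with the replicate block, and without any 1 library of wild type or replicate 2 of the overexpression-labelled strain at either harvest (adjusted p = 0.0601 to 0.222 without 1 library). Of 4 zinc uptake genes only the transporter gene zrfC was called, as positive (1.32 ± 0.16). That share of 25% lies below the 28.9% of all tested genes, and the list's median interaction was 0.00. The count was 2 under some alternatives, RLE scaling among them. Of 9 genes of autolysis and extracellular proteolysis 1 was positive and 2 negative, 33.3% called beside 28.9% of all tested genes (median -0.02). The positive one was exg1 (0.62 ± 0.14), and the negative ones were lap1 (-0.61 ± 0.11) and dppIV (-1.27 ± 0.19, adjusted p = 0.000183). The secreted peptidase gene dppIV (AN6438) was higher in the overexpression-labelled strain at both harvests. It stood at 44.6 ± 0.945 against 6.8 ± 1.03 CPM at 17 h and 72.8 ± 1.65 against 27 ± 2.92 CPM at 48 h. Of 17 ergosterol synthesis genes 0 were positive and 2 negative (erg4A at -0.72 and erg24B at -0.59). That is 11.8% called, below the 28.9% of all tested genes. The positive count was higher without replicate 1 of wild type or replicate 2 of the overexpression-labelled strain at 48 h. Of 6 histone and cell cycle genes only htz1 was called (0.42), a share of 16.7% and also below 28.9%. Over the 31 lists, counting each gene once, 70 of 295 tested genes were positive and 38 negative, 36.6% called, beside 28.9% of all tested genes and 30.4% of the 773 tested genes with a reference symbol.

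The largest negative interactions among genes of at least 10 CPM belonged to genes without a reference symbol, in early and late forms. AN8953 went from 1290 and 1330 to 5.22 and 7.03 CPM in the overexpression-labelled strain, against 3.73 and 2.8 and then 7.83 and 11.3 CPM in wild type (interaction -9.31 ± 0.47, adjusted p = 9.91e-09). AN6669 stood at 597 and 632 CPM and then 80.9 and 59.8 CPM in the overexpression-labelled strain, against 15.8 and 13.7 and then 39.4 and 42.4 CPM in wild type (interaction -4.58 ± 0.20, adjusted p = 3.05e-09). Both were high in the overexpression-labelled strain at 17 h and fell, while they rose in wild type.

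A late loss was seen for AN8641 and AN6693. AN8641 had 410 and 427 and then 475 and 324 CPM in wild type, and 406 and 344 and then 12.5 and 6.67 CPM in the overexpression-labelled strain (interaction -5.15 ± 0.35, adjusted p = 1.30e-07). AN6693 fell from 543 and 490 to 112 and 74.8 CPM in wild type and from 564 and 545 to 3.16 and 2.62 CPM in the overexpression-labelled strain (interaction -5.08 ± 0.24, adjusted p = 5.93e-09). Neither had a called strain difference at 17 h, and the strains were far apart at 48 h. AN7539, AN5324, AN5090, AN0694 and AN4113 had interactions of -5.20, -4.86, -4.73, -4.58 and -4.52, and each was lower than wild type at 48 h.

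On the positive side, AN6095 rose from 13.4 and 14.1 to 42 and 55.2 CPM in wild type and from 6.41 and 6.37 to 648 and 412 CPM in the overexpression-labelled strain (interaction 4.55 ± 0.31, adjusted p = 1.40e-07). AN7774 rests on 6 reads in wild type at 48 h. Its interaction of 4.71 ± 0.69 fell to 2.97 without replicate 1 of the overexpression-labelled strain at 48 h and was then not called (adjusted p = 0.119). AN7265, in contrast, had a called negative interaction (adjusted p = 0.000917) and rose in both strains. It had 0 reads in wild type at 17 h, so its interaction has no size. Taking 3 reads over that group as the limit, its wild type level at 48 h was at least 1110-fold higher than at 17 h, and its 17 h level in the overexpression-labelled strain at least 12.7-fold higher than in wild type.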

How the data were processed

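Reads were processed by the authors with tools that include HTSeq, BWA and Trimmomatic, per the submitters' processing notes, which also list edgeR and limma. Build and strandedness of counting are not given in the sources used here, so reads from overlapping or antisense genes, or from near-identical copies, cannot be told apart. The table of counts deposited by the authors gives unnormalized reads for each gene and library. A deposited table of log2 RPKM per group was not used. Of 10727 entries, 15 repeated entries and 31 upstream open reading frames (0.000199% of counts) were left out.

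Counts were fitted with edgeR 4.0.16 in R 4.3.3 (quasi-likelihood, TMM, filterByExpr) in 1 model of 12 libraries and 6 groups, without a block. The filter kept 9670 genes and left 1011 out. There were 6 residual and 7.73 prior degrees of freedom and a common biological coefficient of variation of 8.2%. Chi-square per degree of freedom between duplicates was 9.31 to 42.3, so they differed by more than counting error. The labels do not say how independently duplicate cultures were started, and p-values measure only the spread between them. Limits from 3 counts cover counting error only.

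The steps were tested on simulated data with 1 spread for all genes, where interactions were added to well-counted genes. Of 50 genes given a log2 interaction of 0.5, 14 were recovered, and of 50 given 1, 47 were. Among the unchanged genes 9 were called. A small interaction that was not called is therefore not shown to be absent.

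Symbols, gene order and chromosomes come from the RefSeq gene table of assembly ASM1142v1 (9967 genes matched, 778 with a symbol), and genes without a symbol there are given by identifier, without a role. Lists were used where at least 3 members were named by that table, which left 31 lists. The lists, the tests and the genes named were chosen with earlier results of these data known, and some list members were added after a first look. Named were AN7572, the 10 highest and 10 lowest called interactions among genes of at least 10 CPM, the 5 of each sign with opposite called changes, up to 3 called members per list, and 10 fixed genes, with some left out for length. Further members of a list are named with their list, and runs of neighbours were chosen after their values were seen.

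The alternatives tried were 2 other scalings (RLE, upper quartile), 2 other tests (DESeq2 1.42.0 and voom of limma 3.58.1), 2 other filters (none, or 5 CPM in 2 libraries), a replicate block, a model of the 8 libraries alone, a threshold of 0.01 and the removal of single libraries.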

Additional observations from a re-analysis of the deposited data

Results flagged for a closer look

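Every called interaction is a difference between strains in the same contrast, so all 2792 called genes meet the condition for a closer look, which is a tested difference between groups. Groups of 2 cultures are too small to look for single outlying samples.

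Among the genes named in the text, the change from 17 h to 48 h was called in both strains with opposite directions for the following. The interaction was positive, with a fall in wild type and a rise in the overexpression-labelled strain, for prnD (9.58), prnC (7.45), sidI (6.64), AN2901 (5.71), AN2622 (5.51), AN1734 (5.24), car2 (4.28), fluG (3.10), sidC (2.83) and mirD (2.13). It was negative, with a rise in wild type and a fall in the overexpression-labelled strain, for AN8953 (-9.31), AN5324 (-4.86), AN5090 (-4.73), AN0694 (-4.58), AN6669 (-4.58), AN4113 (-4.52), treA (-3.71), erdS (-3.64), AN7572 (-2.77), atfA (-1.71) and the glucan-modifying gene gel1 (-0.52). Each of these values is a log2 difference from the edgeR interaction test.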

How the results depend on the processing

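A change of direction was counted only where the main fit or the alternative called the interaction. The check covered the 100 genes picked by the naming rule. Some of them are not printed above, and some printed genes, such as treA, erdS, CweA and rodA, are not among them. No interaction of these 100 genes changed direction under the 17 alternatives. Of the 91 called, 60 stayed called under all of them. An adjusted p under 0.01 ended 27 of these calls, leaving out 1 library between 13 and 22, and other settings at most 8. The number of called interactions was 1808 at an adjusted p under 0.01 (1743 for the strain difference at 17 h), 2901 with RLE scaling, 2607 with DESeq2 and 2783 with limma-voom. With 1 library left out, where the lone culture of a group is assumed to vary like the others, counts ranged from 2148 to 2591 for the interaction, 1782 to 2908 for the strain difference at 17 h (2854 in full), 2735 to 3959 for that at 48 h (3974 in full), 7535 to 7907 for the change in the overexpression-labelled strain and 7597 to 8097 for that in wild type. The 17 h strain difference lost over 1.5 times of its calls without replicate 1 of wild type (1813), replicate 2 of wild type (1782) or replicate 2 of the overexpression-labelled strain (1873). The cause was not tested. The excess of negative over positive interactions was absent in the fit of 8 libraries alone (1459 positive, 1431 negative) and nearly so with RLE scaling (1445 and 1456).

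RLE and upper-quartile scaling moved the median gene by 0.111 and 0.194 in the wild type change and by 0.143 and 0.204 in the overexpression-labelled one, but by 0.032 and 0.010 in the interaction. Replicates 1 and 2 of a group were numbered in the order of the samples, and the sample titles do not carry this numbering in every group. Same-numbered replicates did not deviate together (correlations of -0.15 to 0.05). As the numbers follow sample order only, neither this check nor a replicate block can tell whether cultures were paired. A replicate block gave 2680 called interactions, 2648 of them shared with the fit without it. The gene rodA, with few reads at 17 h, had an SE of 0.90.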

Other observations

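Runs of at least 4 neighbouring genes, all called with the same sign and at least 2-fold, numbered 17 in the gene order of the reference, and they were found by looking at the values. Besides the proline and siderophore runs they include AN3348 to AN3344 on chromosome VI, 5 genes with a median interaction of 2.25, and AN7228 to AN10915 on chromosome IV, 6 genes with a median of 1.45. AN2016 to AN2019 on chromosome VII were 4 genes with a median of -1.79, higher than wild type at 17 h (median log2 difference 2.00). The reference gives none of these genes a symbol.

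A pair of runs on chromosome II, AN7893 to AN11584 (6 genes, median interaction -4.31) and AN7899 to AN7903 (5 genes, median -5.69), had low levels in all 4 groups compared. AN7902 stood at 4.67 ± 2.25 CPM in wild type at 48 h and at 0.0929 ± 0.00391 CPM in the overexpression-labelled strain, and AN7893 at 5.67 ± 1.99 and 0.117 ± 0.0377 CPM. In the deletion-labelled strain at 54 h, AN7902 stood at 604 CPM and AN7893 at 918 CPM. These interactions rest on few reads, and the wild type cultures at 48 h differed from each other (6.26 and 3.08 CPM of AN7902).

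The gene CweA (AN1827), also singled out after its values were seen, had no called change in wild type, from 49.9 and 65.2 to 50.3 and 65.4 CPM. It rose in the overexpression-labelled strain from 50 and 66.4 to 189 and 271 CPM (interaction 1.97 ± 0.28, adjusted p = 0.000128).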
